A study of Mus musculus with 14 samples.

Results

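Lipid droplets are the organelles in which hepatocytes store triglyceride, and 10 genes for proteins that coat, enlarge, drain or build them are described here by the accessibility of their chromatin in mouse liver. The genes were chosen by name, with earlier results of these data known: the perilipins Plin2, Plin4 and Plin5, the CIDE family genes Cidea, Cideb and Cidec, the lipolysis regulators Hilpda and G0s2, the lipase gene Pnpla2, and Fitm2. An accessible interval was counted to a gene when its midpoint lay inside the gene, and otherwise when that gene was the nearest protein-coding one within 50000 bp. This gave 96 of 105801 intervals in the high-fat table and 60 of 88203 in the chow table, for 10 of 21887 annotated protein-coding genes. No interval belonged to more than 1 of the genes.

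All mice were females with floxed Matr3, the gene of the nuclear RNA- and DNA-binding protein matrin-3. The liver-specific knockout (LKO) mice carried Albumin-Cre in addition, a transgene whose albumin promoter drives deletion in hepatocytes and leaves Matr3 in the other cells of the liver. The floxed controls were littermates. On the diet with 60 kcal% fat there were 4 LKO and 4 floxed livers, and on chow 3 LKO and 3 floxed livers. Either diet ran for 16 weeks from 7 weeks of age, and the high-fat mice were killed after 12 h without food, per the design text. ATAC-seq, which inserts sequencing adapters into open DNA with a transposase, was run on nuclei from 50 mg of frozen liver.

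Perilipins sit on the droplet surface and control the access of lipases to the stored fat. CIDE proteins act where droplets touch and move fat from smaller to larger ones, and in liver the product of Cideb also serves the lipidation of secreted lipoproteins. Adipose triglyceride lipase, the product of Pnpla2, removes the first fatty acid from triglyceride, and the products of G0s2 and Hilpda inhibit it. Several of these genes are known targets of the PPAR nuclear receptors, which fatty acids activate in fasting.

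Library totals within intervals were 7.59 to 9.46 megareads in LKO and 7.80 to 10.4 megareads in floxed livers on the high-fat diet. On chow they were 15.5 to 35.0 megareads in LKO and 17.1 to 33.2 megareads in floxed livers, with library 2 of each genotype the shallowest. The intervals of Matr3 itself summed to 72.6 to 81.7 CPM (reads per megaread of the library, scaled with TMM factors) in LKO and 69.9 to 96.7 CPM in floxed livers on the high-fat diet, and to 83.2 to 88.15 CPM in LKO and 89.9 to 91.4 CPM in floxed livers on chow. The chow groups did not overlap, as at 12.0% of all chow gene sums, and none of its 7 intervals passed the test in either diet. On the first principal component of the high-fat table (25.7% of the variance), LKO 1 and 2 lay at 4.98 and -12.2, LKO 3 and 4 at -73.4 and -72.3, and floxed 1 to 4 at 56.0, 75.0, -18.9 and 41.0, so that floxed 3 lay beyond LKO 1 and 2 on the side of LKO 3 and 4.

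The promoters of Plin4, Plin2, Hilpda and Plin5 are shown because each overlaps an accessible interval over the gene's start and because the Plin4 one is under an interval that passed the test. The high-fat start interval covers all 300 bases of the Plin4, Hilpda and Plin5 promoters and 196 of the 300 of Plin2. Each runs from 250 bases before to 50 after the RefSeq start (GRCm38.p6, the assembly named mm10), 5′ to 3′ on the gene's strand. The places are chr17:56109733-56110032 on the minus strand for Plin4, chr4:86670010-86670309 on the minus strand for Plin2, chr6:29272376-29272675 on the plus strand for Hilpda, and chr17:56117249-56117548 on the minus strand for Plin5. Capitals mark motif matches on either strand, and the Plin5 run holds none.
Plin4: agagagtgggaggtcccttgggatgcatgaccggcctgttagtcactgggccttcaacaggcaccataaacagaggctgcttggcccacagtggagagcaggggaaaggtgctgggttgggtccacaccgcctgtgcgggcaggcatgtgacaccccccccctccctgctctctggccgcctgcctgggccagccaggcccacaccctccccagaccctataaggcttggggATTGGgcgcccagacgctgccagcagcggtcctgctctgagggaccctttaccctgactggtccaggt
Plin2: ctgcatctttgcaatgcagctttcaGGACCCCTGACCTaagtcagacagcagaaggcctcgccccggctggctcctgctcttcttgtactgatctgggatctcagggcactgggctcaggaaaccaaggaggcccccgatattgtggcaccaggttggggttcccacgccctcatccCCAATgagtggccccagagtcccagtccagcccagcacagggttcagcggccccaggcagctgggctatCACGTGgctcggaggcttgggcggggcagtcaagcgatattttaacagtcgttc
Hilpda: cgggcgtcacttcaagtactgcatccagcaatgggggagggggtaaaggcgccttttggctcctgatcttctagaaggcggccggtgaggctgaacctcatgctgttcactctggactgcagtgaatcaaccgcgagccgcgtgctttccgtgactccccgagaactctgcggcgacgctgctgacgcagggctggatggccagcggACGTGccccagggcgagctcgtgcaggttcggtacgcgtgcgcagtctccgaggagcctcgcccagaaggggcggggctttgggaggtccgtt
Plin5: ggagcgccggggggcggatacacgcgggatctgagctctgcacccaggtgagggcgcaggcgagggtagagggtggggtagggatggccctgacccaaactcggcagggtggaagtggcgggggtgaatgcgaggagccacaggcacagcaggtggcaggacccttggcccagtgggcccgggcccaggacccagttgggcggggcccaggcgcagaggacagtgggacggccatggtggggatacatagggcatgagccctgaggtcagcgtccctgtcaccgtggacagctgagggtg

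A CCAAT box was found in the Plin4 promoter at bases 233 to 237 of the printed run, on the opposite strand. The Plin2 promoter held 1 at bases 178 to 182. A further annotated Plin5 start has 2 in its promoter, both outside the start interval, which covers 66 of its bases. CCAAT occurs in 37.4% of 32851 mouse promoters of this length. The Plin2 promoter also held a PPAR response element match at bases 26 to 38, on the opposite strand, taken as AGGTCA written 2 times with 1 base between and at most 2 mismatches in the 12 letters (3.86% of promoters). On the high-fat diet that match lies outside the start interval, in the next one upstream, chr4:86670222-86670722, at 11.2 ± 1.27 CPM in LKO and 8.83 ± 0.877 CPM in floxed livers (SD, n = 4 each, log2 fold change 0.33, SE 0.17, edgeR adjusted p = 0.537). An E-box, CACGTG (7.15% of promoters), stood at bases 247 to 252 of Plin2 and contained the hypoxia core ACGTG on both strands. The Hilpda promoter held ACGTG at bases 208 to 212, and 19.6% of promoters hold it. No match was found in the promoters of Cideb, Cidec, Fitm2, G0s2 and Pnpla2, at the other annotated start of Hilpda, or for a PPAR element in those of Plin4, Hilpda and Plin5.

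Plin4, whose perilipin coats small droplets through a long repeated amphipathic stretch, rose in LKO livers on the high-fat diet at 4 of its 14 intervals, and none fell (edgeR's quasi-likelihood test, Benjamini-Hochberg adjusted p under 0.05 over all intervals). Of all 105801 intervals 0.751% passed this test, 0.448% with the higher value in LKO. The largest gain, 2.68-fold by group means, lay 6631 bp downstream of the start. At the interval farthest downstream, 8726 bp from the start, the log2 fold change was 0.69 (SE 0.20, edgeR adjusted p = 0.110). All 14 intervals had a positive log2 fold change (LKO over floxed), between 0.16 and 1.42 with a median of 0.78, and all 14 bear names of knockout calls. In whole-liver nuclei more cells of a type and more accessibility per cell cannot be told apart. The interval with the largest change, chr17:56102901-56103401, lay in the gene 6631 bp downstream of its start. It had 9.55, 13.4, 17.9 and 34.0 CPM in LKO livers 1 to 4, against 8.88, 6.05, 9.30 and 3.69 CPM in floxed livers 1 to 4. The groups did not overlap, as at 5.3% of all intervals, LKO 4 was the highest library and floxed 4 the lowest, and LKO 1 stood just above floxed 3. The means were 18.7 ± 10.7 CPM in LKO and 6.98 ± 2.63 CPM in floxed livers (SD, n = 4 each), a log2 fold change of 1.42 (SE 0.27, edgeR adjusted p = 0.00675).

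The interval over the Plin4 start, chr17:56109706-56110206, covers the whole printed promoter. It had 20.6, 23.1, 30.7 and 41.7 CPM in LKO livers 1 to 4, against 19.0, 19.8, 17.2 and 13.3 CPM in floxed livers 1 to 4. The groups did not overlap here either, with LKO 1 close to floxed 2. The log2 fold change was 0.74 (SE 0.17, edgeR adjusted p = 0.0260), with means of 29.0 ± 9.47 CPM in LKO and 17.3 ± 2.92 CPM in floxed livers (SD, n = 4 each).

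The other intervals that passed lay inside the gene, 4769 and 5867 bp downstream of the start. At chr17:56104763-56105263 the LKO livers 1 to 4 had 18.4, 22.4, 22.7 and 49.2 CPM and the floxed livers 1 to 4 had 19.9, 11.8, 15.6 and 8.30 CPM, a log2 fold change of 1.02 (SE 0.23, edgeR adjusted p = 0.0227). At chr17:56103665-56104165 the LKO livers 1 to 4 had 14.1, 17.2, 18.0 and 43.2 CPM and the floxed livers 1 to 4 had 13.9, 9.56, 15.7 and 5.30 CPM, a log2 fold change of 1.05 (SE 0.26, edgeR adjusted p = 0.0484). In both, the groups overlapped at LKO 1, and LKO 4 was far above every other library. The most accessible Plin4 interval, chr17:56108492-56108992, 1040 bp into the gene, averaged 32.9 ± 2.82 CPM in LKO and 29.4 ± 6.46 CPM in floxed livers (SD, n = 4 each) and did not pass (log2 fold change 0.16, SE 0.13, edgeR adjusted p = 0.742).

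**Figure D1:**
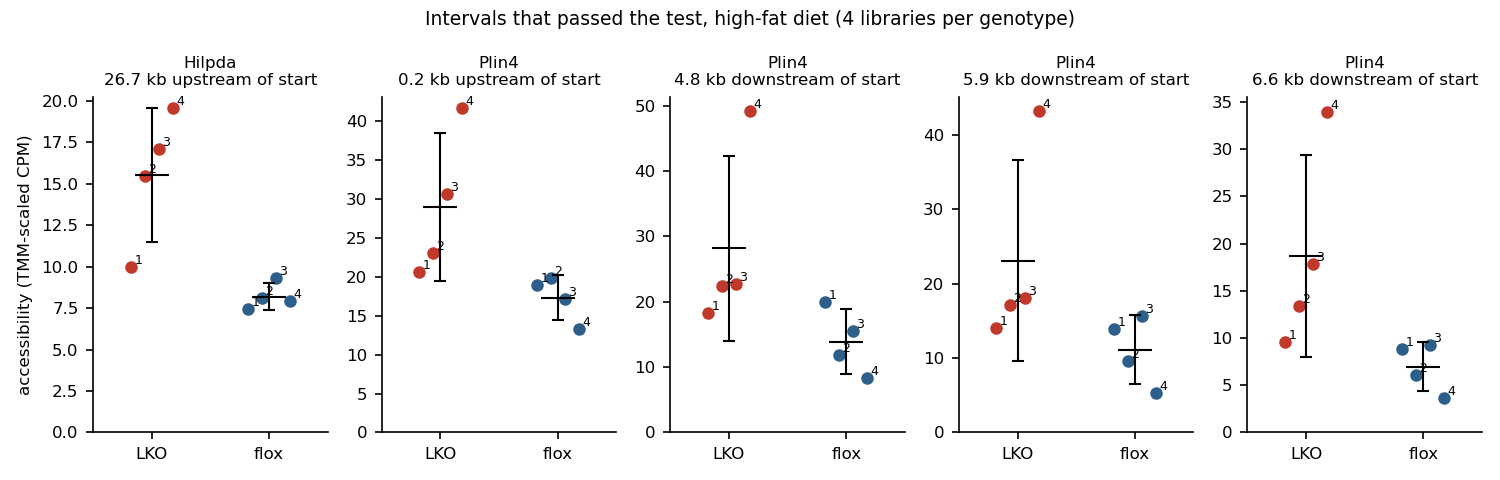
Accessibility (TMM-scaled CPM, linear axes from 0, scales differ) of the 5 droplet gene intervals that passed the test on the high-fat diet, with 4 LKO and 4 floxed libraries as numbered points and the mean with its SD as bars. LKO 4 is the highest point in every panel, and at the 2 Plin4 intervals 4.8 and 5.9 kb downstream it stands at 49.2 and 43.2 CPM.

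Libraries LKO 4 and floxed 4 formed the ends of the range across the gene: LKO 4 was the highest of the 8 libraries at 12 of the 14 Plin4 intervals, and floxed 4 the lowest at 11. Without LKO 4, no Plin4 interval passed, although all 14 log2 fold changes stayed positive (0.10 to 0.97, lowest edgeR adjusted p = 0.0950). Without floxed 4 none passed either (lowest edgeR adjusted p = 0.0528), with 14 of 14 positive. Leaving out LKO 3 or floxed 2 left 3 and 2 calls, while 5 to 9 intervals passed without LKO 1, LKO 2, floxed 1 or floxed 3. Calls fell over the whole genome too: of 105801 intervals 795 passed with every library, 304 without LKO 4 and 326 without floxed 4. Without LKO 3 or floxed 2 the totals were 359 and 437, and without each of the other libraries 632 to 1189. DESeq2 kept 1 of the 4 Plin4 calls, the start interval, and gave adjusted p = 0.186, 0.488 and 0.356 for those 6631, 5867 and 4769 bp downstream.

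Summed over its 14 intervals, Plin4 had 208.8, 266.6, 238.3 and 459.1 CPM in LKO livers 1 to 4, against 224.3, 169.3, 182.4 and 122.1 CPM in floxed livers 1 to 4. The sums overlapped, since floxed 1 was above LKO 1. The log2 fold change of the sum was 0.75 (SE 0.19) and missed the threshold over all genes (edgeR adjusted p = 0.120, rank 162 by p of 16360 genes, of which 0.324% passed). It was 0.45 (SE 0.14) without LKO 4.

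On chow, Plin4 had 5 intervals and none passed, against 0.0227% of all chow intervals. The start interval, chr17:56109720-56110220, had 8.57, 6.65 and 9.52 CPM in the 3 LKO livers, against 10.8, 7.40 and 6.31 CPM in the 3 floxed livers. The interval 4835 bp downstream had 2.47, 5.39 and 4.16 CPM in LKO and 6.66, 6.37 and 2.66 CPM in floxed livers. Groups overlapped in both, and their log2 fold changes were 0.02 (SE 0.23) and -0.40 (SE 0.37). The highest interval, 1064 bp downstream, had 24.6 ± 4.99 CPM in LKO and 25.7 ± 1.82 CPM in floxed livers (SD, n = 3 each), with a log2 fold change of -0.06. The intervals 5867 and 6631 bp downstream had no matched interval in the chow table. Levels are scaled within each table, so levels of the diets are set side by side only.

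**Figure D2:**
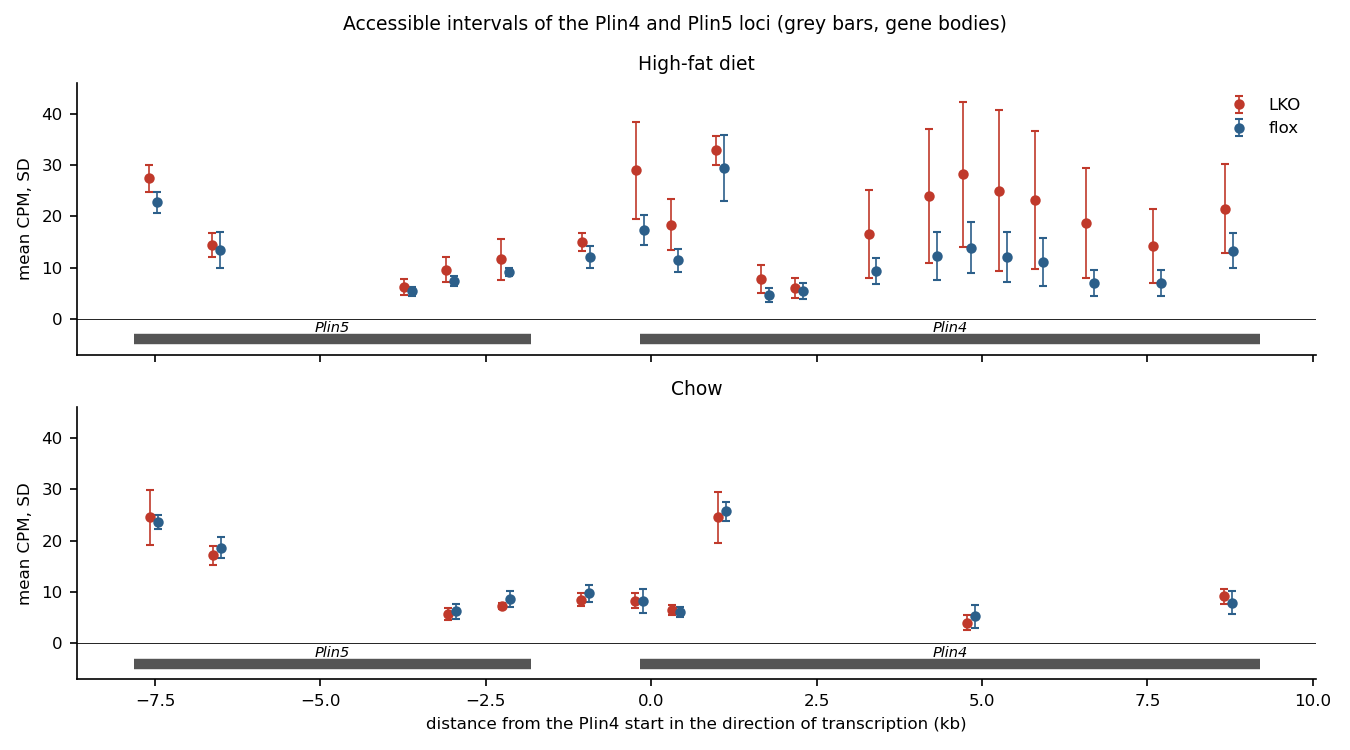
Mean CPM with SD of every interval of Plin4 and Plin5 in LKO and floxed livers, against the distance from the Plin4 start in kb, for the high-fat diet (4 libraries each) and chow (3 libraries each). On the high-fat diet the LKO means exceed the floxed means at all 14 Plin4 intervals and all 5 Plin5 intervals, and the LKO bars inside Plin4 are the longest.

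The genes next to Plin4 had smaller fold changes. On the high-fat diet the summed log2 fold change was 0.25 (SE 0.10) for Plin5, 0.23 (SE 0.15) for Hdgfl2, 0.30 (SE 0.08) for Ubxn6, 0.22 (SE 0.10) for Lrg1, 0.04 (SE 0.07) for Sema6b and -0.16 (SE 0.15) for Chaf1a, and no sum passed the test. The Ubxn6 sum had edgeR adjusted p = 0.110, beside 0.120 for the Plin4 sum. Of the neighbours' intervals, 1 of the 3 assigned to Ubxn6 passed. These neighbours were named after their values were seen.

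Hilpda, whose hypoxia-inducible product inhibits adipose triglyceride lipase, rose in LKO livers on the high-fat diet at 1 distal interval, which was 1.89-fold higher by group means. This interval, chr6:29245533-29246033, lies between genes, 26705 bp upstream of Hilpda and 29419 bp from Impdh1 on its other side, so its assignment to Hilpda rests on distance alone. It had 9.98, 15.4, 17.1 and 19.6 CPM in LKO livers 1 to 4, against 7.42, 8.09, 9.30 and 7.95 CPM in floxed livers 1 to 4. Every LKO liver was above every floxed liver, with LKO 1 the closest. The log2 fold change was 0.92 (SE 0.19, edgeR adjusted p = 0.0105), with means of 15.5 ± 4.07 CPM in LKO and 8.19 ± 0.794 CPM in floxed livers (SD, n = 4 each). The call was lost without LKO 3 (edgeR adjusted p = 0.0528) and without LKO 4 (edgeR adjusted p = 0.0869), and DESeq2 kept it (adjusted p = 0.00313).

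The Hilpda start interval, chr6:29272372-29272872, was its most accessible. It had 29.9, 30.1, 30.2 and 29.0 CPM in LKO livers 1 to 4, against 23.4, 22.1, 27.8 and 21.6 CPM in floxed livers 1 to 4. The groups did not overlap, yet the test over all intervals was not passed (log2 fold change 0.33, SE 0.12, edgeR adjusted p = 0.239). Summed over 9 intervals, Hilpda had 88.0, 108.5, 107.0 and 117.9 CPM in LKO livers and 82.5, 77.1, 92.4 and 77.6 CPM in floxed livers. The sum's log2 fold change of 0.35 (SE 0.09) did not pass (edgeR adjusted p = 0.108), and only LKO 1 fell within the floxed range. Of its 9 intervals, 6 were positive and 3 negative. On chow, its 7 intervals summed to 79.9, 83.7 and 85.0 CPM in LKO and 78.0, 80.1 and 68.7 CPM in floxed livers (log2 fold change 0.13, SE 0.08). The chow start interval averaged 27.9 ± 1.74 CPM in LKO and 26.2 ± 2.198 CPM in floxed livers (SD, n = 3 each, log2 fold change 0.09). The chow interval that matches the distal one had 7.24, 7.53 and 6.25 CPM in LKO and 6.31, 6.71 and 3.92 CPM in floxed livers, a log2 fold change of 0.32 (SE 0.23) that did not pass. The lowest chow p of Hilpda lay 17839 bp upstream (log2 fold change 0.35, SE 0.24, edgeR adjusted p = 0.781). Fam71f2, the gene next to Hilpda, had 2 intervals, both positive on the high-fat diet. They summed to a log2 fold change of 0.33 (SE 0.20, edgeR adjusted p = 0.633), near the 0.35 of Hilpda. On chow the sum of Fam71f2 was at -0.10 (SE 0.19). This neighbour was named after its values were seen.

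**Figure D3:**
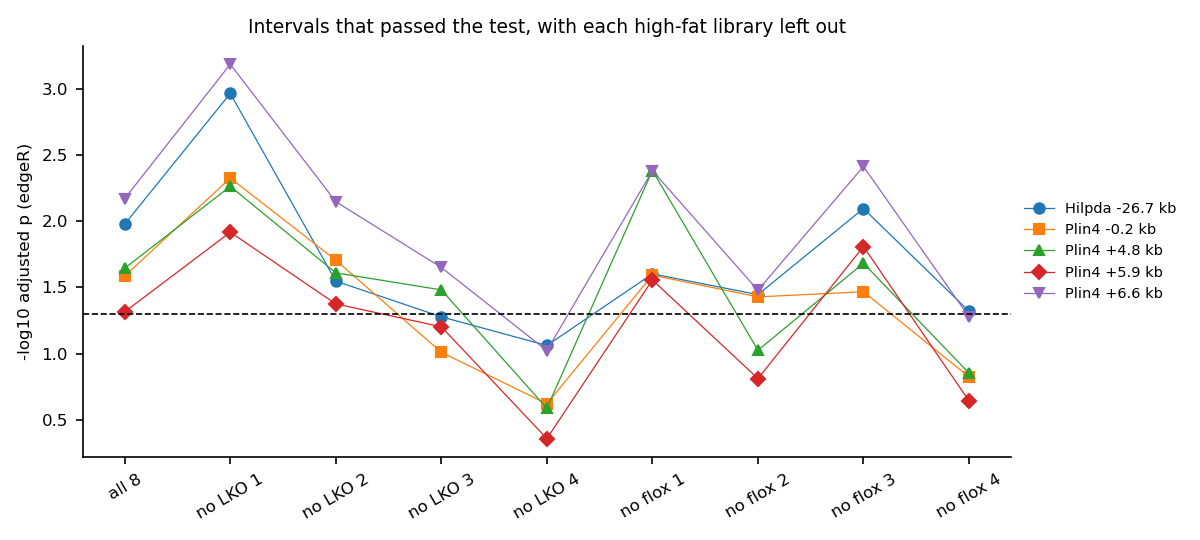
Minus log10 of the edgeR adjusted p of the 5 called intervals with all 8 high-fat libraries and with each library left out, named by distance from the gene start (dashed line, the threshold of 0.05; higher is smaller p). Without LKO 4 all 5 fall below the line, and without LKO 1 all 5 lie above it.

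Plin2, which encodes the main droplet coat protein of hepatocytes, had 36 intervals on the high-fat diet and none passed the test. Its sums were 282.2, 482.7, 367.0 and 510.7 CPM in LKO livers 1 to 4, against 268.0, 301.0, 427.4 and 454.6 CPM in floxed livers 1 to 4. Libraries varied by nearly as much inside each genotype as between the extremes of both, and the groups overlapped (log2 fold change 0.18, SE 0.17, edgeR adjusted p = 0.798). LKO 1 was the lowest LKO library at 28 of the 36 intervals, and floxed 1 the lowest floxed library at 23. The start interval, chr4:86669705-86670205, was the most accessible of all intervals of the 10 genes, with 34.9, 40.5, 45.7 and 52.3 CPM in LKO livers and 32.3, 35.0, 44.6 and 43.6 CPM in floxed livers. Its log2 fold change was 0.16 (SE 0.12). The lowest p belonged to chr4:86671662-86672162, 1853 bp upstream, where LKO livers averaged 12.4 ± 1.96 CPM and floxed livers 9.33 ± 0.468 CPM without overlap (SD, n = 4 each, log2 fold change 0.41, SE 0.17, edgeR adjusted p = 0.375). On chow, 12 of 20 Plin2 intervals were positive and none passed. There the sums were 257.9, 197.9 and 256.4 CPM in LKO and 284.0, 191.9 and 226.2 CPM in floxed livers (log2 fold change 0.02, SE 0.16). The chow start interval averaged 39.7 ± 6.63 CPM in LKO and 37.7 ± 5.22 CPM in floxed livers (SD, n = 3 each). The chow interval with the lowest p lay 37295 bp downstream, with 3.31, 3.89 and 3.30 CPM in LKO and 5.15, 6.83 and 3.95 CPM in floxed livers (log2 fold change -0.60, SE 0.25, edgeR adjusted p = 0.718).

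Plin5, which ties droplets to mitochondria in tissues that burn fat, had 5 intervals on either diet. Its high-fat sums were 65.9, 74.8, 62.4 and 86.7 CPM in LKO livers 1 to 4, against 65.8, 67.0, 53.9 and 57.2 CPM in floxed livers 1 to 4. The groups overlapped and the log2 fold change of 0.25 (SE 0.10) did not pass (edgeR adjusted p = 0.405). The start interval, chr17:56117064-56117564, averaged 27.4 ± 2.60 CPM in LKO and 22.7 ± 2.08 CPM in floxed livers (SD, n = 4 each, log2 fold change 0.27, SE 0.12, edgeR adjusted p = 0.443). All 5 intervals were positive on the high-fat diet and 1 of 5 on chow. The sets differ, since the chow one holds chr17:56110537-56111037, whose match on the high-fat diet is counted to Plin4. The chow sums were 68.1, 58.2 and 71.4 CPM in LKO and 79.0, 69.6 and 63.5 CPM in floxed livers (log2 fold change -0.10, SE 0.11), and the chow start interval averaged 24.6 ± 5.34 CPM in LKO and 23.7 ± 1.32 CPM in floxed livers (SD, n = 3 each). The lowest chow p lay 5316 bp downstream (log2 fold change -0.25, SE 0.19, edgeR adjusted p = 0.795).

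Cidec, whose product (also called FSP27 in mice) enlarges droplets in fatty liver, had 11 intervals on the high-fat diet, all with a positive log2 fold change and none past the test. It was the only one of the 10 genes whose summed accessibility did not overlap between the groups, and 4.99% of all genes were separated in this way in either direction. The sums were 116.1, 129.4, 113.9 and 131.0 CPM in LKO livers 1 to 4, against 100.6, 108.8, 96.1 and 99.9 CPM in floxed livers 1 to 4. The log2 fold change was 0.27 (SE 0.07, edgeR adjusted p = 0.132, rank 173 of 16360 genes). The start interval, chr6:113434576-113435076, had 15.1, 17.3, 17.9 and 26.5 CPM in LKO livers and 12.8, 13.1, 13.95 and 14.8 CPM in floxed livers, also without overlap (log2 fold change 0.49, SE 0.16, edgeR adjusted p = 0.187). Its most accessible interval, 6603 bp downstream, averaged 23.8 ± 3.16 CPM in LKO and 23.3 ± 1.97 CPM in floxed livers (SD, n = 4 each). On chow, Cidec was split, with 3 of 6 intervals positive and sums of 74.0, 56.2 and 78.2 CPM in LKO and 80.6, 55.2 and 69.4 CPM in floxed livers (log2 fold change 0.02, SE 0.15). The chow start interval averaged 9.62 ± 1.41 CPM in LKO and 9.14 ± 1.79 CPM in floxed livers, and the highest one, 6526 bp downstream, averaged 24.6 ± 3.99 CPM in LKO and 20.4 ± 6.81 CPM in floxed livers (SD, n = 3 each). The lowest chow p lay 3845 bp downstream, where LKO livers were lower without overlap (log2 fold change -0.48, SE 0.20, edgeR adjusted p = 0.724).

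Cidea and Cideb had few intervals. Cidea, which like Cidec enlarges droplets and is best known from brown fat, had 2 on the high-fat diet, which summed to 10.7, 15.0, 12.4 and 17.4 CPM in LKO and 12.1, 11.9, 13.8 and 16.9 CPM in floxed livers. The log2 fold change of 0.02 (SE 0.17) was far inside the spread. The higher one, chr18:67369537-67370037, lies 1993 bp outside the gene and averaged 7.86 ± 1.66 CPM in LKO and 7.68 ± 0.834 CPM in floxed livers (SD, n = 4 each). Its chow counterpart averaged 7.86 ± 1.19 CPM in LKO and 9.09 ± 1.37 CPM in floxed livers (SD, n = 3 each, log2 fold change -0.21, SE 0.19). On chow its 3 intervals were all negative and summed to 14.4, 20.8 and 13.4 CPM in LKO and 16.0, 25.1 and 16.0 CPM in floxed livers (log2 fold change -0.24, SE 0.22, edgeR adjusted p = 0.755). Cideb, which serves lipoprotein lipidation in hepatocytes, had 1 interval, chr14:55757546-55758046, in which LKO livers had 6.12, 7.39, 8.75 and 8.21 CPM and floxed livers 6.63, 6.34, 6.16 and 6.91 CPM on the high-fat diet (log2 fold change 0.22, SE 0.20, edgeR adjusted p = 0.780). The chow values were 7.47, 5.96 and 8.01 CPM in LKO and 8.05, 6.43 and 8.30 CPM in floxed livers, and the groups overlapped on both diets.

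Pnpla2, the lipase gene, had 4 positive intervals on the high-fat diet, none past the test. They summed to 68.9, 67.7, 65.1 and 67.2 CPM in LKO livers 1 to 4, against 63.0, 66.9, 56.3 and 57.6 CPM in floxed livers 1 to 4, with overlap at floxed 2 (log2 fold change 0.14, SE 0.08, edgeR adjusted p = 0.579). The start interval, chr7:141454915-141455415, averaged 23.5 ± 2.87 CPM in LKO and 22.5 ± 2.56 CPM in floxed livers, and the most accessible one, 710 bp downstream, 25.7 ± 0.966 CPM in LKO and 24.01 ± 2.14 CPM in floxed livers (SD, n = 4 each). At the interval 1780 bp downstream, LKO livers had 8.58, 9.82, 10.7 and 8.46 CPM and floxed livers 7.75, 7.90, 4.65 and 4.72 CPM. Those groups did not overlap, with a log2 fold change of 0.57 (SE 0.21, edgeR adjusted p = 0.261). On chow all 3 intervals were negative, with sums of 45.8, 37.0 and 37.7 CPM in LKO and 45.5, 37.3 and 48.1 CPM in floxed livers (log2 fold change -0.12, SE 0.12). The chow start interval averaged 18.35 ± 1.46 CPM in LKO and 18.9 ± 1.42 CPM in floxed livers (SD, n = 3 each), and the lowest chow p lay 3308 bp downstream (log2 fold change -0.34, SE 0.26, edgeR adjusted p = 0.795).

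G0s2 and Fitm2 had the opposite sign from the other 8 genes in the high-fat sums, and neither passed. G0s2, which encodes the other lipase inhibitor, was negative at 8 of 9 intervals and summed to 120.1, 133.3, 103.5 and 145.2 CPM in LKO livers 1 to 4, against 118.1, 150.2, 131.9 and 146.2 CPM in floxed livers 1 to 4 (log2 fold change -0.12, SE 0.10, edgeR adjusted p = 0.750). Its start interval, chr1:193272879-193273379, had 32.2 ± 2.52 CPM in LKO and 31.3 ± 2.65 CPM in floxed livers (SD, n = 4 each), and the lowest p lay 9331 bp upstream at 2.70 ± 0.735 CPM in LKO and 4.24 ± 0.979 CPM in floxed livers (SD, n = 4 each, log2 fold change -0.65, SE 0.30, edgeR adjusted p = 0.454). On chow 5 of its 6 intervals were positive, but the 3 LKO sums of 80.0, 65.4 and 127.4 CPM spanned the floxed sums of 111.1, 79.7 and 66.0 CPM (log2 fold change 0.09, SE 0.25). The chow start interval averaged 28.1 ± 7.75 CPM in LKO and 26.2 ± 4.59 CPM in floxed livers (SD, n = 3 each), and the lowest chow p lay 626 bp downstream (log2 fold change 0.25, SE 0.18, edgeR adjusted p = 0.790).

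Fitm2 encodes a protein of the endoplasmic reticulum through which droplets bud. All 5 of its intervals were negative on the high-fat diet, with sums of 39.3, 51.1, 34.0 and 45.7 CPM in LKO livers 1 to 4, against 43.4, 49.3, 51.3 and 50.2 CPM in floxed livers 1 to 4. The groups overlapped (log2 fold change -0.19, SE 0.11, edgeR adjusted p = 0.608). Its start interval, chr2:163472486-163472986, averaged 16.4 ± 3.11 CPM in LKO and 17.8 ± 2.16 CPM in floxed livers (SD, n = 4 each). The lowest p lay 3566 bp downstream at 3.84 ± 0.684 CPM in LKO and 5.10 ± 1.16 CPM in floxed livers (SD, n = 4 each, log2 fold change -0.41, SE 0.26, edgeR adjusted p = 0.632). On chow the sums were 40.6, 43.8 and 42.1 CPM in LKO and 40.4, 43.0 and 41.9 CPM in floxed livers (log2 fold change 0.01, SE 0.08). The chow start interval averaged 16.8 ± 0.997 CPM in LKO and 15.7 ± 1.99 CPM in floxed livers (SD, n = 3 each), and the lowest chow p lay 9378 bp upstream (log2 fold change -0.22, SE 0.29, edgeR adjusted p = 0.864).

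All intervals are 501 bp wide, so levels can be set against each other. On the high-fat diet the start intervals of LKO livers ran, from the top, Plin2, G0s2, Hilpda, Plin4, Plin5, Pnpla2, Cidec, Fitm2 and Cideb, and Cidea had none within 1000 bp of an end. The libraries of neighbours in this order overlapped, except those of Fitm2 and Cideb. In floxed livers Plin4 stood lower in the order, at 17.3 ± 2.92 CPM between Fitm2 at 17.8 ± 2.16 CPM and Cidec at 13.6 ± 0.882 CPM (SD, n = 4). On chow the LKO order was Plin2, G0s2, Hilpda, Plin5, Pnpla2, Fitm2, Cidec, Plin4 and Cideb, with Plin4 at 8.25 ± 1.46 CPM beside Cidec at 9.62 ± 1.41 CPM (SD, n = 3). The Plin4 start was at 8.18 ± 2.36 CPM in floxed chow livers (SD, n = 3).

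**Figure D4:**
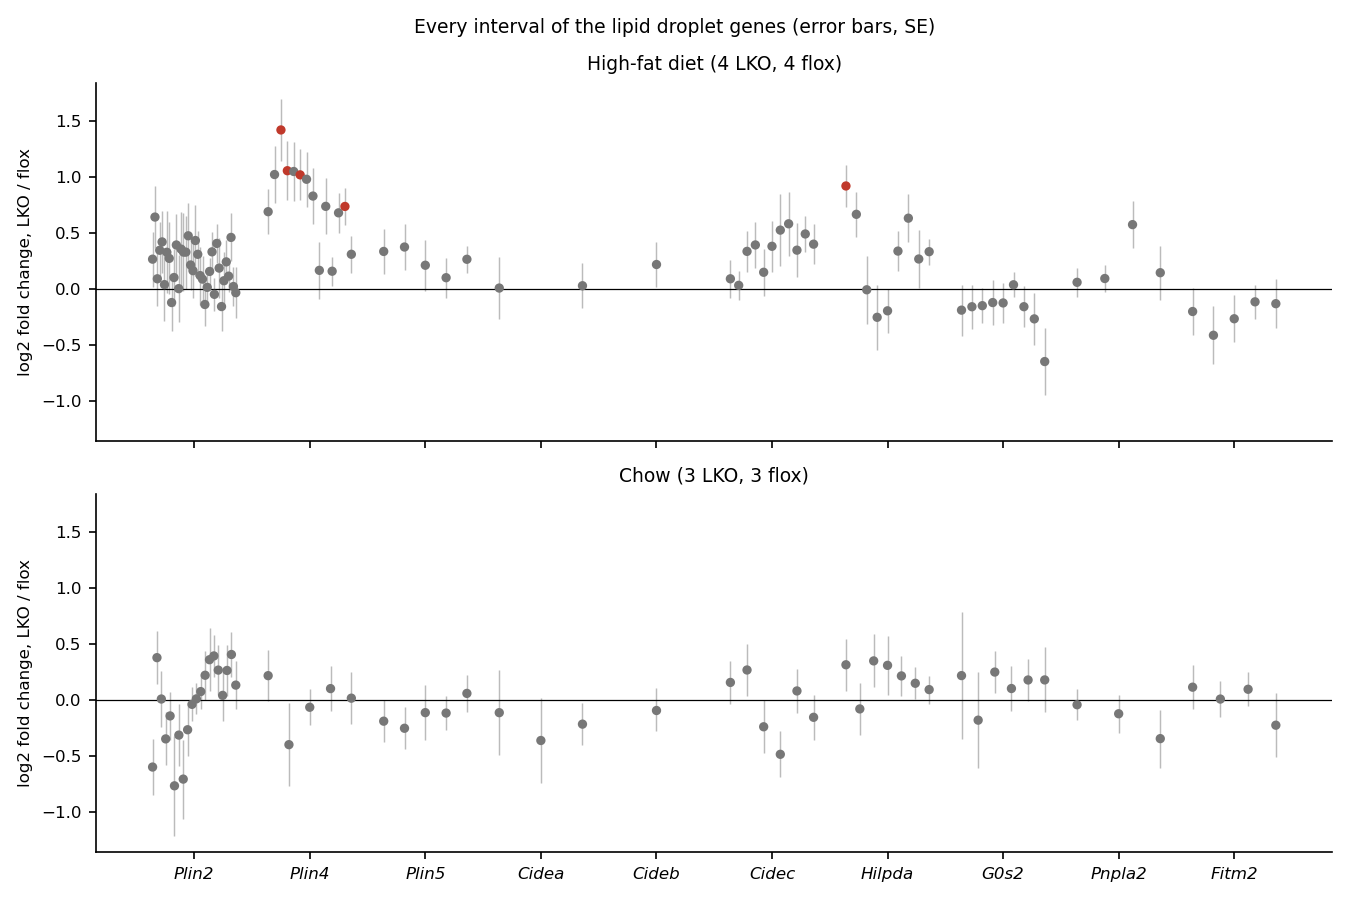
Log2 fold change of LKO over floxed with its SE for each interval of the 10 genes, in genome order within a gene, on the high-fat diet (4 LKO, 4 floxed) and chow (3 LKO, 3 floxed). Red points passed the test: 4 of 14 Plin4 and 1 of 9 Hilpda intervals on the high-fat diet, and none on chow.

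Taking the 10 genes at once, 5 of 96 intervals rose in LKO livers on the high-fat diet (5.21%, against 0.448% of all intervals) and 0 fell. At an unadjusted p under 0.05 there were 23 of the 96, of which 22 higher, against 10.2% of all intervals. Separation without overlap occurred at 10 intervals (10.4%), all higher, against 5.3% of all in either direction. The median log2 fold change was 0.22 over the 96 intervals and -0.0039 over all intervals, and 75 of the 96 (78.1%) were positive against 49.4%. Plin2 and Plin4 supply 50 of the 96 intervals, and intervals of 1 gene are not independent of each other. Of the 5 that rose, 4 were of Plin4, and 0 of the 96 passed without LKO 4, where 304 of all 105801 intervals passed. The 10 genes were chosen with earlier results of these data known.

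The direction moved with the genotype in which the authors called an interval. Interval names assign 72 of the 96 (75.0%) to knockout calls, against 49.5% of all intervals, and all 14 of Plin4 and 11 of Cidec are among them. Of all intervals from knockout calls 73.1% were positive (median 0.12), against 26.1% of those from floxed calls (median -0.13). Within knockout calls 63 of 72 droplet gene intervals were positive (87.5%, median 0.33), and within floxed calls 12 of 24 (50.0%, median -0.02). The part of call origin in the positive shares was not tested.

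Of the 10 sums, 8 were positive on the high-fat diet (median 0.20, against -0.0012 over all genes). By edgeR none passed the threshold, and DESeq2 also passed none, where 53 and 126 of all 16360 genes passed. An unadjusted edgeR p under 0.05 was reached by 4 of the 10 (Plin4, Hilpda, Cidec and Plin5), against 1635 of all 16360 genes. On chow no droplet gene interval passed by edgeR or DESeq2, and 2 of 60 (3.33%) had an unadjusted p under 0.05, both lower in LKO, against 6.77% of all. Of all 88203 chow intervals 20 passed by edgeR and 544 by DESeq2. Separation occurred at 2 chow intervals (3.33%), against 11.7% of all. The chow median was 0.01 with 33 of 60 positive, and by call origin 25 of 31 from knockout calls and 8 of 29 from floxed calls were positive, against 76.4% and 22.6% of all intervals. No chow sum passed by edgeR or DESeq2, while 0.0% of all genes passed by edgeR and 39 of 16014 by DESeq2. None of the 10 chow sums had an unadjusted edgeR p under 0.05, against 1048 of all 16014 genes.

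Whether the genotype effect differed between diets was tested on the 55 droplet gene intervals with a match of at least 50% in the other table. None passed by edgeR or DESeq2, and of 73945 matched intervals 0.183% did by edgeR and 283 by DESeq2. At an unadjusted p under 0.05 there were 11, all with a positive difference (high-fat minus chow), against 7.44% of all matched intervals: 4 of Plin4, 3 of Cidec, 2 of Hilpda, and 1 each of Plin2 and Plin5. At the Plin2 interval the log2 fold change was 0.27 (SE 0.24) on the high-fat diet and -0.60 (SE 0.25) on chow. The largest difference was 1.45 (SE 0.48, edgeR adjusted p = 0.370) at the Plin4 interval 4769 bp downstream. It was 0.75 (SE 0.31, edgeR adjusted p = 0.562) at the Plin4 start and 0.63 (SE 0.30, edgeR adjusted p = 0.665) at the distal Hilpda interval. All 6 matched Plin4 intervals, 1 of them matched to a chow interval counted to Plin5, and all 4 of Plin5 had a positive difference, while 5 of 6 of G0s2 and 3 of 4 of Fitm2 had a negative one. The 95% interval of the largest, before adjustment and by a normal approximation from its SE, was 0.51 to 2.38. No diet dependence of a single interval was detectable at this depth. No fasting time is given for the chow mice, so diet and fasting state cannot be told apart in this test. Of the 96 high-fat intervals 41 had no match and were outside this test, including 8 of Plin4's 14.

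**Figure D5:**
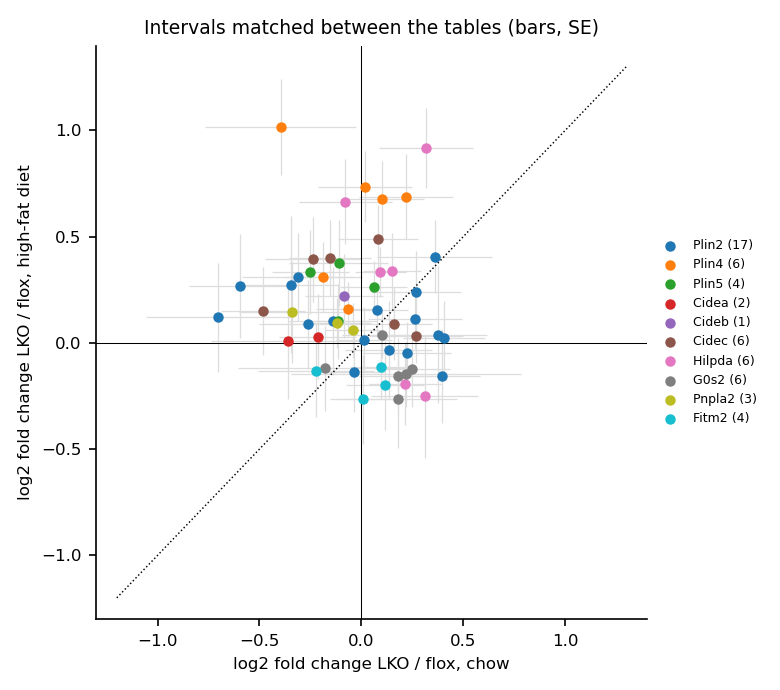
Log2 fold change of LKO over floxed on the high-fat diet against that on chow for the 55 intervals matched between the tables, coloured by gene with the number of intervals in brackets (bars, SE; dotted line, equal effects). All 6 Plin4 intervals lie above the dotted line, and 1 of 6 G0s2 intervals does.

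Few intervals of other pathway genes passed the test on the high-fat diet, and the shares that fell were near that of all intervals. Of all intervals 0.303% fell. Of 200 intervals of 18 other droplet and lipolysis genes, 0 rose and 1 fell, with a median of -0.12. The one that fell lies at Dgat2, which makes triglyceride, at 7.41 ± 2.42 CPM in LKO and 13.4 ± 2.96 CPM in floxed livers (SD, n = 4 each, log2 fold change -0.85, SE 0.21, edgeR adjusted p = 0.0443), and it stayed past the threshold in 3 of 8 fits with a library left out (edgeR adjusted p up to 0.205). It was lost without LKO 3, LKO 4, floxed 1, floxed 2 or floxed 4. Of 288 intervals of 16 fasting and PPAR target genes 0 rose and 0 fell (median 0.03). Of 560 intervals of 13 regulator genes, 0 rose and 2 fell (median -0.08), both at Ppara, the gene of the fatty acid receptor PPAR alpha. The stronger had 4.20 ± 1.80 CPM in LKO and 9.44 ± 2.69 CPM in floxed livers (SD, n = 4 each, log2 fold change -1.15, SE 0.25, edgeR adjusted p = 0.0187) and passed in 5 of 8 fits with a library left out, being lost without LKO 3, LKO 4 or floxed 4 (edgeR adjusted p up to 0.162). The weaker (log2 fold change -0.83, edgeR adjusted p = 0.0496) passed in none of the 8. On chow no interval of these lists passed by edgeR.

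Markers of liver cell types were summed in the same way. Summed over 8 hepatocyte markers, accessibility was 2206 to 3178 CPM in LKO and 2706 to 3882 CPM in floxed livers on the high-fat diet, and 33 of 207 intervals fell while 1 rose. Those that fell lay at Alb, Apoa2, Ttr and Tat. The one that rose lay at Alb (log2 fold change 1.42, edgeR adjusted p = 8.96e-08), where 19 of 34 intervals fell. LKO mice also carry albumin promoter sequence in the Cre transgene, and its part in the Alb values of either diet was not tested. The adipocyte list, which holds the adipose perilipin gene Plin1, summed to 111.4 to 132.9 CPM in LKO and 102.3 to 115.8 CPM in floxed livers over 5 of 6 markers, with no interval of Retn and no call. Kupffer cell markers summed to 125.8 to 142.5 CPM in LKO and 98.8 to 145.1 CPM in floxed livers (6 of 7, none of Timd4), and stellate markers to 96.6 to 119.8 CPM in LKO and 86.8 to 106.3 CPM in floxed livers (6 of 7, none of Dcn). Endothelial markers summed to 379.7 to 426.1 CPM in LKO and 358.8 to 427.8 CPM in floxed livers (6 of 6). Biliary markers summed to 61.5 to 68.1 CPM in LKO and 55.0 to 63.3 CPM in floxed livers (3 of 4, none of Krt19), and neutrophil markers to 24.4 to 36.04 CPM in LKO and 24.1 to 35.2 CPM in floxed livers (3 of 4, none of Cxcr2). Of these lists, only the hepatocyte one had intervals that passed by edgeR. On chow hepatocyte markers summed to 3851 to 4357 CPM in LKO and 3872 to 5864 CPM in floxed livers, with 1 of 182 intervals higher, at Alb (log2 fold change 1.29, edgeR adjusted p = 0.0410), and 0 lower. The chow sums of the adipocyte list were 83.5 to 104.7 CPM in LKO and 91.3 to 104.5 CPM in floxed livers, those of Kupffer cell markers 59.4 to 90.7 CPM in LKO and 71.9 to 104.8 CPM in floxed livers, and those of endothelial markers 266.7 to 322.6 CPM in LKO and 318.7 to 335.7 CPM in floxed livers. Those of stellate markers were 113.8 to 131.8 CPM in LKO and 108.8 to 135.9 CPM in floxed livers, those of biliary markers 81.7 to 102.2 CPM in LKO and 88.05 to 92.7 CPM in floxed livers, and those of neutrophil markers 19.1 to 27.5 CPM in LKO and 22.5 to 36.6 CPM in floxed livers, so the groups overlapped in each. The part of cell makeup in the Plin4 and Hilpda differences was not tested.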

How the data were processed

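Per the labels, libraries were aligned to mm10. The authors deposited 1 table per diet of raw read counts per interval and library, and every interval is 501 bp wide. The submitters' processing notes list, without roles, Bowtie2 2.4.2, Trim Galore 0.6.7, HOMER 4.11, bedtools, MACS2 2.2.7.1, ChIPseeker and DESeq2. Duplicate handling, the shift for the transposase and any pooling before calling are not given there, in the labels or in the files. Intervals carry the genotype they were called in, so the libraries compared also chose the intervals.

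Each table was fitted alone on the deposited counts by edgeR 4.0.16 (R 4.3.3) with filterByExpr, TMM scaling and the quasi-likelihood test of genotype, per interval and per gene on summed counts, with Benjamini-Hochberg adjustment over the whole table at 0.05. The difference between diets was tested over all 14 libraries on intervals matched 1 to 1. Each edgeR SE is the size of the log2 fold change divided by the square root of the test's F statistic. DESeq2 1.42.0 and limma 3.58.1 were alternatives, and the edgeR steps were tested on simulated data. The common biological coefficient of variation was 0.17 per interval on the high-fat diet and 0.187 on chow. Counts behind droplet gene values were 14 to 414 reads per interval and library on the high-fat diet and 40 to 1522 on chow. No 2 libraries of a group agreed within counting noise (chi-square per degree of freedom at least 2.49). Gene bounds and promoters came from RefSeq tables of GRCm38.p6, and 9 of the 10 genes matched a promoter.

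High-fat columns match single samples. Chow columns match only their genotype, and their numbers name columns; same-numbered chow libraries deviated together (correlations 0.184, 0.533 and 0.189), although LKO 1 correlated more with floxed 3 (0.278), and the fit with that number as a block changed no call on the 10 genes. The genes, lists, neighbours and tests were chosen with earlier results of these data known. For each gene the text names the start interval, the most accessible one, each one past the test and, where none passed, the one with the lowest p, and other intervals were named after their values were seen. One marker list is not reported here. The titles number females singly, so each library is read as 1 mouse.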

Additional observations from a re-analysis of the deposited data

Results flagged for a closer look

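Of 62 sets of 4 libraries examined, 3 held a library far from the other 3 by Dixon's test, which chance gives in about 1 of 20 sets. At the Plin4 interval chr17:56103665-56104165 on the high-fat diet, LKO 4 had 43.2 CPM, while the other LKO livers had 14.1, 17.2 and 18.0 CPM. At the Plin4 interval chr17:56104763-56105263, LKO 4 had 49.2 CPM, while the other LKO livers had 18.4, 22.4 and 22.7 CPM. Without LKO 4, the adjusted p of edgeR became 0.438 at the first of these and 0.259 at the other. At the Pnpla2 start interval, chr7:141454915-141455415, floxed 3 had 18.7 CPM, while the other floxed livers had 23.7, 23.5 and 24.2 CPM.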

How the results depend on the processing

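The count of 5 droplet gene intervals higher in LKO livers on the high-fat diet was 2 with DESeq2 and 4 with limma. Both were counted at an adjusted p under 0.05. The edgeR count ranged from 0, without LKO 4, to 11, without LKO 1, when a library was left out. It was 3 without LKO 3 or floxed 2, 8 without floxed 1 or floxed 3, and 1 without floxed 4. With assignment within 10000 bp the count was 4, since the distal Hilpda interval then belongs to no gene. The cause of the other shifts was not tested. With the number as a replicate block the count was 7. Over all 105801 intervals, in either direction, 795 passed in the main fit and 1420 under the block. Of the same intervals 829 passed with DESeq2, 656 with limma, 304 without LKO 4 and 1126 without LKO 1. The total was 359 without LKO 3, 437 without floxed 2, 864 without floxed 1, 1189 without floxed 3 and 326 without floxed 4. Under the replicate block 3 gene sums passed where none did without it: Hilpda (edgeR adjusted p = 0.0153), Cidec (edgeR adjusted p = 0.0210) and Plin4 (edgeR adjusted p = 0.0369). Of all 16360 genes, 53 passed without the block and 359 with it. High-fat libraries share only a number: same-numbered deviations correlated at 0.0676, 0.131, 0.177 and -0.0105, and LKO 1 correlated best with floxed 2. Leaving out 1 library gave 0 to 1 sums (Hilpda, without LKO 1 or without floxed 3, where 77 and 183 of all genes passed). Counts on chow, of lower intervals and of differences between diets were 0 under every alternative run, including one without both shallow chow libraries, which was chosen after the data were seen. Of all 88203 chow intervals 0 to 677 passed in these runs, with 544 by DESeq2 and 677 by limma. Of 16014 chow gene sums 0 to 39 passed, and of 73945 matched intervals 82 to 397. On the high-fat diet 118 to 627 of all intervals passed with the lower value in LKO. Of 1182 recomputed single values, 1159 kept their direction or stayed uncalled, 18 lost the call, 5 gained one and no called value turned round; 58 uncalled values changed sign.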
